A study of Mus musculus with 6 samples.

Results

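The platelet-derived growth factor (PDGF) and fibroblast growth factor (FGF) genes described here were 6 receptors, *Pdgfra*, *Pdgfrb*, *Fgfr1*, *Fgfr2*, *Fgfr3* and *Fgfr4*, and 4 genes grouped as ligands, *Pdgfa*, *Pdgfb*, *Fgf1* and *Fgf12*. The rule takes them by gene symbol: every probe that is not a control and whose RefSeq transcript carries 1 of these symbols was taken. This gave 22 of the 56605 probes on the array and 10 of the 45616 genes and transcripts tested. *Fgf12* encodes an FGF homologous factor, a protein that stays inside the cell and is not a ligand of the FGF receptors in the usual sense, so counts over the ligand group are also given for the 3 secreted ligands alone.

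PDGFs are dimeric growth factors that bind a pair of receptor tyrosine kinases, PDGFRα and PDGFRβ. In developing organs PDGF-A is made mostly by epithelial and neural cells and is read by PDGFRα on mesenchymal cells, whereas PDGF-B is made mostly by endothelial cells and is read by PDGFRβ on pericytes and smooth muscle cells that it recruits to vessels. Secreted FGFs bind FGF receptors together with heparan sulfate or a Klotho protein, and both receptor families signal through the Ras and MAP kinase route, whose output raises its own inhibitors, the Sprouty, Spred and dual-specificity phosphatase proteins.

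The 6 arrays hold RNA of islet cells from pups at postnatal day 1, which the methods give as *Wnt4eGFPCre;mTmG*, from mice crossed to C57BL/6J. In such pups Cre is made from the *Wnt4* locus and switches a reporter at *Rosa26* from membrane tdTomato to membrane GFP (mGFP), so mGFP records that a cell has expressed *Wnt4*, not how much it expresses at the time of the sort. The mGFP+ fraction is called Wnt4hi and the mGFP- fraction Wnt4low. No treatment is named. Elsewhere the study names the Wnt4low side of this comparison as islets that carry the reporter but not the Cre allele, so whether both fractions came from pups of 1 genotype is not settled here, and a difference of genotype cannot be told apart from the sort. The labels and methods state no gate on β-cells, so either fraction can hold other islet cells, including cells of vessels and connective tissue. Each population had 3 arrays, each of a pool of the islets of 3 or 4 pups, and the labels do not say whether Wnt4hi and Wnt4low pools of 1 number came from the same pups. Picogram amounts of RNA were amplified before labelling with Cy5 and hybridisation, 1 sample per array, to a SurePrint G3 Mouse v2 design.

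Between 70.5% and 79.5% of the spots were well above background on the arrays, and 0 were saturated. All values below are log2 intensities after background correction and quantile normalization, all differences are Wnt4hi minus Wnt4low on that scale, and all p values are from limma's empirical Bayes fit over all 45616 genes and transcripts, unless another test is named. For a symbol with several probes, the one brightest on average was used. Values of different genes are not compared in level, since each probe has its own brightness. *Wnt4* itself was higher by 1.08 (SE 0.27) in Wnt4hi cells, with no overlap between the arrays and an adjusted p of 0.212 in limma's fit. The insulin genes *Ins1* and *Ins2* were well above background on all arrays, so both fractions contained β-cell RNA. Of all features, 0.403% were lower and 0.0351% were higher in Wnt4hi cells after Benjamini-Hochberg adjustment. Without Wnt4low replicate 3 there were 5 adjusted calls toward Wnt4low and without Wnt4hi replicate 2 there were 2, and there were 0 without any of the other 4 arrays, while 1598 to 2415 features passed the unadjusted threshold as higher and 2108 to 2608 as lower, so the adjusted calls rested on having all arrays.

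The probes used for all 10 genes were well above background on all 6 arrays, so no gene was left out. Of the 10 genes, *Pdgfb*, *Pdgfrb*, *Pdgfra* and *Fgfr1* were lower in Wnt4hi cells, by 1.26 to 2.01 on the log2 scale, and passed the unadjusted threshold of 0.05. This is 4 of 10, beside 5.53% of all features that passed it in this direction. None of the 10 passed it in the other direction, where the share over all features was 5.02%. After adjustment over all features 0 of the 10 passed, beside 0.438% of all features in either direction. The same 4 genes were those whose Wnt4hi arrays all lay below all Wnt4low arrays, a separation shown by 6.44% of all features, and *Fgfr4* was the only member with all Wnt4hi arrays above, which 9.56% of all features showed. By role, 3 of 6 receptors and 1 of 4 genes of the ligand group passed the unadjusted threshold, or 1 of 3 without *Fgf12*. The median difference was -0.68 over the receptors, -0.13 over the ligand group and -0.51 over the 3 secreted ligands, a count without *Fgf12* chosen after seeing the data, beside 0.07 over all features. These medians depended on *Fgf12* and on the probe chosen, since with the mean of the probes *Fgfr1* was at -0.78, *Fgfr2* at 0.44 and *Fgfr4* at 0.46. The *Fgfr2* mean takes in a probe that was not well above background on any Wnt4low array. No difference between receptors and ligands as groups was tested.

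**Figure D1:**
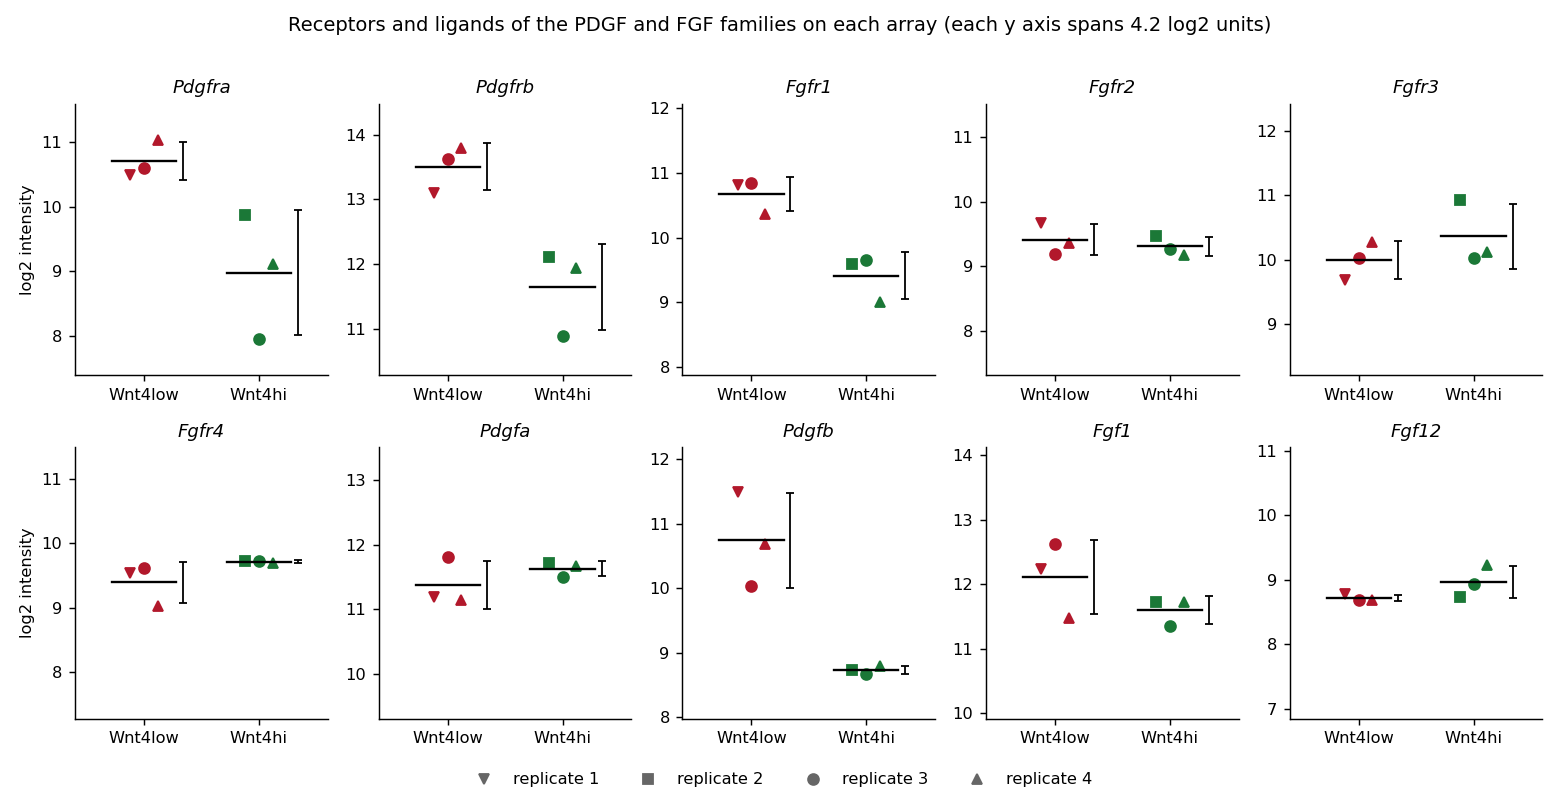
Log2 intensity of the 10 genes on each array, for 3 Wnt4low (red) and 3 Wnt4hi (green) arrays. Symbols give the replicate number, horizontal lines the mean and error bars the SD. *Pdgfra*, *Pdgfrb*, *Fgfr1* and *Pdgfb* show no overlap and lower Wnt4hi values, while the remaining genes differ by 0.51 or less.

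Among the PDGF ligands, *Pdgfb*, which encodes the B chain, read 11.50, 10.03 and 10.69 on Wnt4low replicates 1, 3 and 4. On Wnt4hi replicates 2, 3 and 4 it read 8.74, 8.66 and 8.79. The Wnt4hi arrays lay within 0.13 of each other, and the Wnt4low arrays spread over 1.46 with replicate 1 highest, yet the populations did not overlap. The difference was -2.01 (SE 0.36, 95% interval -2.88 to -1.13), which is 4.02-fold lower in Wnt4hi cells, with an unadjusted p of 0.00130 and an adjusted p of 0.0984 in limma's fit. It passed the adjusted threshold in 1 alternative, when only probes well above background were tested (limma, adjusted p = 0.0471), a setting in which 1.58% of the 31996 features passed.

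*Pdgfa*, which encodes the A chain, did not follow *Pdgfb*. It read 11.18, 11.81 and 11.14 on the Wnt4low arrays and 11.71, 11.49 and 11.67 on the Wnt4hi arrays, so the ranges overlapped. The difference was 0.25 (SE 0.22, 95% interval -0.28 to 0.77, limma adjusted p = 0.783), and the other probe of the gene differed by -0.12. Without Wnt4low replicate 3, the array with the highest *Pdgfa* value, it was 0.46 and passed the unadjusted threshold (limma, adjusted p = 0.367). It was 0.13 without Wnt4low replicate 4, 0.15 without Wnt4low replicate 1, 0.11 with the replicate number as a block, 0.063 with the mean of the probes and 0.033 in the authors' table, and did not pass in any of these.

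Both PDGF receptors were lower in Wnt4hi cells. *Pdgfrb*, which encodes the receptor of pericytes and smooth muscle for PDGF-B, read 13.10, 13.63 and 13.79 on the Wnt4low arrays and 12.10, 10.88 and 11.94 on the Wnt4hi arrays. Wnt4hi replicate 3 was lowest, and the populations were separated. The difference was -1.86 (SE 0.37, 95% interval -2.76 to -0.97), or 3.64-fold lower, with limma's unadjusted p = 0.00216 and adjusted p = 0.125.

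*Pdgfra*, the receptor of mesenchymal cells for PDGF-A, read 10.49, 10.60 and 11.04 on the Wnt4low arrays. Its Wnt4hi values were 9.87, 7.95 and 9.12, a spread of 1.92 in which replicate 3 again was lowest and replicate 2 came nearest to the Wnt4low arrays. The populations did not overlap. The difference was -1.73 (SE 0.48, 95% interval -2.91 to -0.55), or 3.32-fold lower, with limma's unadjusted p = 0.0112 and adjusted p = 0.261. Without Wnt4hi replicate 3 it was -1.22.

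The ligand and the receptor of a cognate pair were then set against each other by subtracting the receptor's value from the ligand's on each array and comparing these differences between the populations, which asks whether both changed alike. The *Pdgfa* minus *Pdgfra* difference was 1.98 larger in Wnt4hi than in Wnt4low cells, without overlap between the arrays (two-sided exact permutation test, p = 0.1, the smallest that 3 against 3 arrays allow, and 0.3 after Benjamini-Hochberg adjustment over 3 pairs). For *Pdgfb* minus *Pdgfrb* it was -0.14 (exact permutation p = 0.8, adjusted 0.8) and turned to 0.42 without Wnt4low replicate 1 and to 0.11 without Wnt4hi replicate 2. The sign of the *Pdgfb* and *Pdgfrb* contrast was thus not settled, whereas the *Pdgfa* and *Pdgfra* contrast stayed between 1.54 and 2.37 without any 1 array. The *Fgf1* minus *Fgfr1* difference was 0.75 (exact permutation p = 0.2, adjusted 0.3) and was 0.48 without Wnt4hi replicate 4, 0.23 with the mean of the probes and 0.35 in the authors' table.

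The 250 bases before the start sites of *Pdgfra* and *Pdgfa*, the pair whose differences were furthest apart, are shown from RefSeq on the build GRCm38.p6, with GC boxes (GGGCGG, or CCGCCC for the other strand) in capitals. *Pdgfra* lies on the plus strand with its window at chr5:75152001-75152250. *Pdgfa* lies on the minus strand of the same chromosome and has start sites with windows at chr5:138994282-138994531 and chr5:138994945-138995194.
Pdgfra: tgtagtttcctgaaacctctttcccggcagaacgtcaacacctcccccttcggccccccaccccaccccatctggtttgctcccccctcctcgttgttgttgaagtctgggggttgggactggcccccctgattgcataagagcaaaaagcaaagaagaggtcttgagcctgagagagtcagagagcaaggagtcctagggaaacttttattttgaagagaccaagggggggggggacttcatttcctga
Pdgfa, downstream start: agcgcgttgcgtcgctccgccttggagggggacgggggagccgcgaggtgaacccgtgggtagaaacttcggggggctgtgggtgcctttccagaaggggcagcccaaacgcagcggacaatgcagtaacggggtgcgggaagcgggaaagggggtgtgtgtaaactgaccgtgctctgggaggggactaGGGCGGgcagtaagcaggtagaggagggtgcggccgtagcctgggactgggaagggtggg
Pdgfa, upstream start: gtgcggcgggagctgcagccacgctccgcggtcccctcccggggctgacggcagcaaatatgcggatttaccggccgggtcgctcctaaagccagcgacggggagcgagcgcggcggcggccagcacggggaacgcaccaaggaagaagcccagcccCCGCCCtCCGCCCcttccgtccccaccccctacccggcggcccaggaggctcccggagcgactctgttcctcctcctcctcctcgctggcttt
The *Pdgfra* window held 4 CpG dinucleotides, 54.4% G or C and 0 GC boxes. The *Pdgfa* windows held 19 and 28 CpG dinucleotides, 66.4% and 72.4% G or C, and 1 and 2 GC boxes, read on both strands. Of all 32851 windows of this length, 32.7% held a GC box. A TATA box (TATAAA or TTTATA) was in none of these 3 windows and in 12.4% of all windows. Windows were held for 6 of the 10 genes, and these letters are a description of the windows and were not set against the array values.

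Among the FGF genes, *Fgf1* encodes a secreted ligand that can bind all FGF receptors. It read 12.23, 12.62 and 11.48 on the Wnt4low arrays and 11.73, 11.35 and 11.73 on the Wnt4hi arrays. Wnt4low replicate 4 fell inside the Wnt4hi range, and the difference of -0.51 (SE 0.31, 95% interval -1.26 to 0.24, limma adjusted p = 0.674) did not pass. It was -0.25 without Wnt4low replicate 3 and -0.83, past the unadjusted threshold, without Wnt4low replicate 4, and it passed that threshold in 5 of 20 alternatives in all. Its other probes differed by -0.76, without overlap between the arrays, and by -0.40, so all 3 probes pointed to lower values in Wnt4hi cells, and the mean of the probes passed the unadjusted threshold at -0.56 (limma, adjusted p = 0.363).

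*Fgf12*, which encodes an intracellular partner of voltage-gated sodium channels, read 8.77, 8.69 and 8.69 on the Wnt4low arrays and 8.73, 8.94 and 9.23 on the Wnt4hi arrays. Wnt4hi replicate 2 lay among the Wnt4low arrays, and the difference was 0.25 (SE 0.16, 95% interval -0.15 to 0.65, limma adjusted p = 0.705). It was 0.12 without Wnt4hi replicate 4. This probe reads a different transcript from the other 3. Of those, 1 differed by 1.16, with 7.91, 7.77 and 7.47 in Wnt4low and 8.82, 9.91 and 7.87 in Wnt4hi cells, where replicate 4 overlapped the Wnt4low range, and the remaining probes were not well above background on any array. The mean of the probes was 0.63 higher in Wnt4hi cells and passed the unadjusted threshold (limma, adjusted p = 0.224). The 2 probes read with the smallest p and in the authors' table, at 0.93 and 0.77, also passed it, but neither was well above background on any array, so the value of this gene depended on the probe.

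*Fgfr1*, an FGF receptor of many mesenchymal cells that is also known from β-cells, was the only FGF receptor past the unadjusted threshold. It read 10.81, 10.85 and 10.36 on the Wnt4low arrays and 9.59, 9.65 and 8.996 on the Wnt4hi arrays. The populations were separated, and the spread within each was 0.65 or less. The difference was -1.26 (SE 0.24, 95% interval -1.84 to -0.68), or 2.40-fold lower in Wnt4hi cells, with limma's unadjusted p = 0.00170 and adjusted p = 0.113. Its 3 other probes differed by -1.29 and -0.54, both without overlap, and by -0.04, with overlap. The size of the change thus depended on the probe, and the mean of the probes was -0.78.

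The other FGF receptors did not pass. *Fgfr2*, known from epithelia, read between 9.19 and 9.67 on the Wnt4low arrays and between 9.18 and 9.46 on the Wnt4hi arrays, a difference of -0.10 (SE 0.17, 95% interval -0.52 to 0.32, limma adjusted p = 0.900). Its other probe was well above background on 2 of 3 Wnt4hi and 0 of 3 Wnt4low arrays (limma over probes, adjusted p = 0.487), so no exact size is read from its difference. That probe read 8.82, 7.16 and 8.29 on Wnt4hi replicates 2, 3 and 4 and 7.15, 6.84 and 7.33 on the Wnt4low arrays, so Wnt4hi replicate 3 lay inside the Wnt4low range. *Fgfr3*, a receptor that restrains growth in cartilage, differed by 0.36 (95% interval -0.35 to 1.07, limma adjusted p = 0.768) with overlapping arrays, of which Wnt4hi replicate 2 was highest at 10.93, and its other probe differed by 0.10. Without Wnt4hi replicate 2 the *Fgfr3* difference was 0.073, and without Wnt4hi replicate 3 it was 0.53.

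*Fgfr4*, which with β-Klotho reads endocrine FGFs in the liver, read 9.54, 9.62 and 9.03 on the Wnt4low arrays and 9.73, 9.72 and 9.69 on the Wnt4hi arrays. The arrays did not overlap, but the difference was only 0.32 (SE 0.19, 95% interval -0.14 to 0.77, limma adjusted p = 0.663). Without Wnt4low replicate 4, the lowest array, it was 0.13. The other probe differed by 0.60 with overlap. Whether *Fgfr1* differed from the other FGF receptors in its change was not tested.

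Over all 22 probes of the 10 genes, 12 were below 0 and 10 above. The 7 probes whose Wnt4hi arrays all lay below the Wnt4low arrays belonged to *Pdgfra*, *Pdgfrb*, *Pdgfb*, *Fgfr1* and *Fgf1*, beside 7.14% of all probes with this pattern. Another 3 probes had all Wnt4hi arrays above, beside 9.22% of all probes, and 2 of these were the dim *Fgf12* probes. On all 6 arrays, 18 of the 22 probes were well above background. *Pdgfra*, *Pdgfrb* and *Pdgfb* had 1 probe each, so no other probe bears on them.

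**Figure D2:**
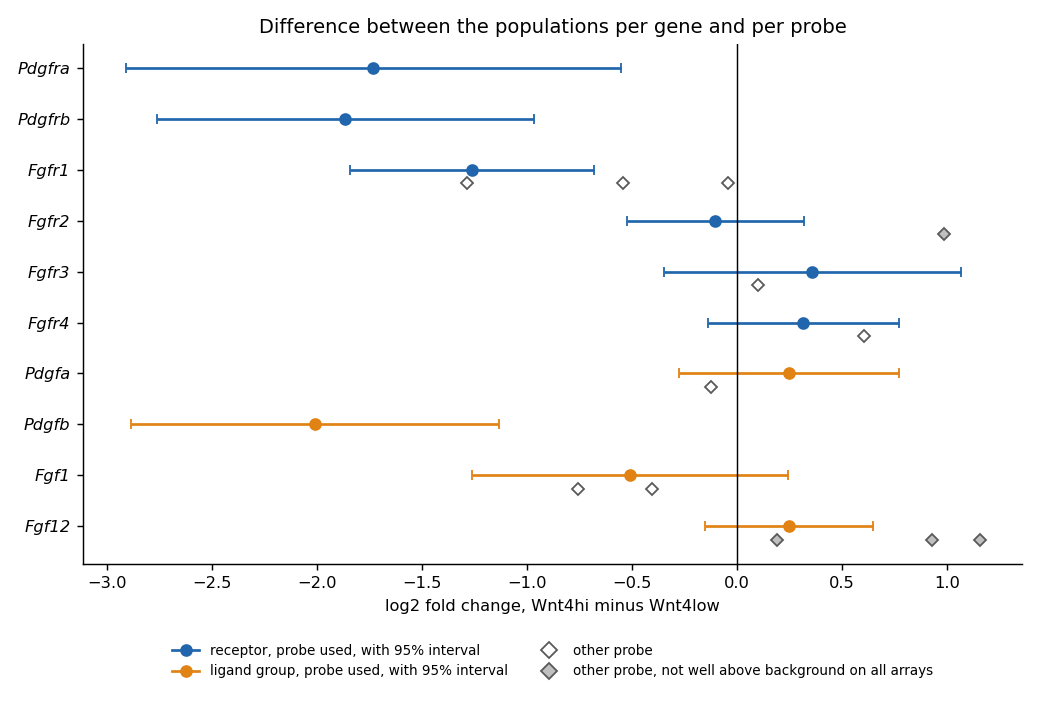
Difference between Wnt4hi and Wnt4low for each gene on the log2 scale, with 95% intervals from limma, for receptors (blue) and the ligand group with *Fgf12* (orange). Diamonds give the other probes of a gene, filled where a probe was not well above background on all 6 arrays. The intervals of *Pdgfra*, *Pdgfrb*, *Fgfr1* and *Pdgfb* lie below 0 and those of the other 6 genes include 0.

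PDGF receptors and PDGF-B are known from the cells of vessels and connective tissue, and markers of these cells moved in the same direction. All 15 endothelial markers had lower values in Wnt4hi cells, 13 of them past the unadjusted and 8 past the adjusted threshold, which 5.53% and 0.403% of all features passed in this direction, with a median of -3.33. Their mean per array was 8.45 to 8.80 in Wnt4hi and 11.17 to 12.16 in Wnt4low cells. *Pecam1*, an adhesion protein of endothelium, differed by -3.04 (limma, adjusted p = 0.0361), *Plvap*, a protein of endothelial fenestrae, by -4.10 (adjusted p = 0.0243), and the secreted vascular factor *Egfl7* by -2.15 (adjusted p = 0.0616). *Tek* and *Tie1*, the endothelial angiopoietin receptor and its partner, were not well above background on any Wnt4hi array and were at least 7.59-fold and 12.2-fold lower there, and they were picked for this after their values were seen.

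Of 12 pericyte and smooth muscle markers 11 were below 0, 7 of them past the unadjusted threshold, which 5.53% of all features passed as lower, with a median of -1.25, and the list mean was 11.24 to 11.78 on Wnt4hi and 12.27 to 12.57 on Wnt4low arrays. The pericyte gene *Rgs5* differed by -1.72 (limma, adjusted p = 0.382) the smooth muscle actin *Acta2* by -0.21 and the adhesion gene *Mcam* by -0.03. All 12 fibroblast and mesenchyme markers were below 0, 6 past that threshold, with a median of -1.18, and the list mean was 9.91 to 11.51 on Wnt4hi and 11.78 to 11.99 on Wnt4low arrays. The collagen genes *Col3a1* and *Col1a2* differed by -1.18 and -1.06, and the intermediate filament gene *Vim* by -1.62. Neither list had an adjusted call.

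Within a population, the order of the arrays was like that of the markers in 2 of 6 comparisons, which were read after the values were seen. In Wnt4hi cells the fibroblast list mean was 11.51, 9.91 and 10.46 on replicates 2, 3 and 4, the order of the *Pdgfra* values, but in Wnt4low cells it was 11.86, 11.78 and 11.99 on replicates 1, 3 and 4, which is not. In Wnt4low cells the endothelial list mean was 12.16, 11.17 and 11.23, the order of the *Pdgfb* values, but in Wnt4hi cells it was 8.80, 8.49 and 8.45, which is not. The pericyte list mean did not follow the order of *Pdgfrb* in either population, with 11.78, 11.33 and 11.24 in Wnt4hi and 12.27, 12.57 and 12.56 in Wnt4low cells. The part of these cells in the lower *Pdgfb*, *Pdgfrb*, *Pdgfra* and *Fgfr1* values was not tested, and in such bulk samples fewer cells of a type and less RNA per cell cannot be told apart.

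**Figure D3:**
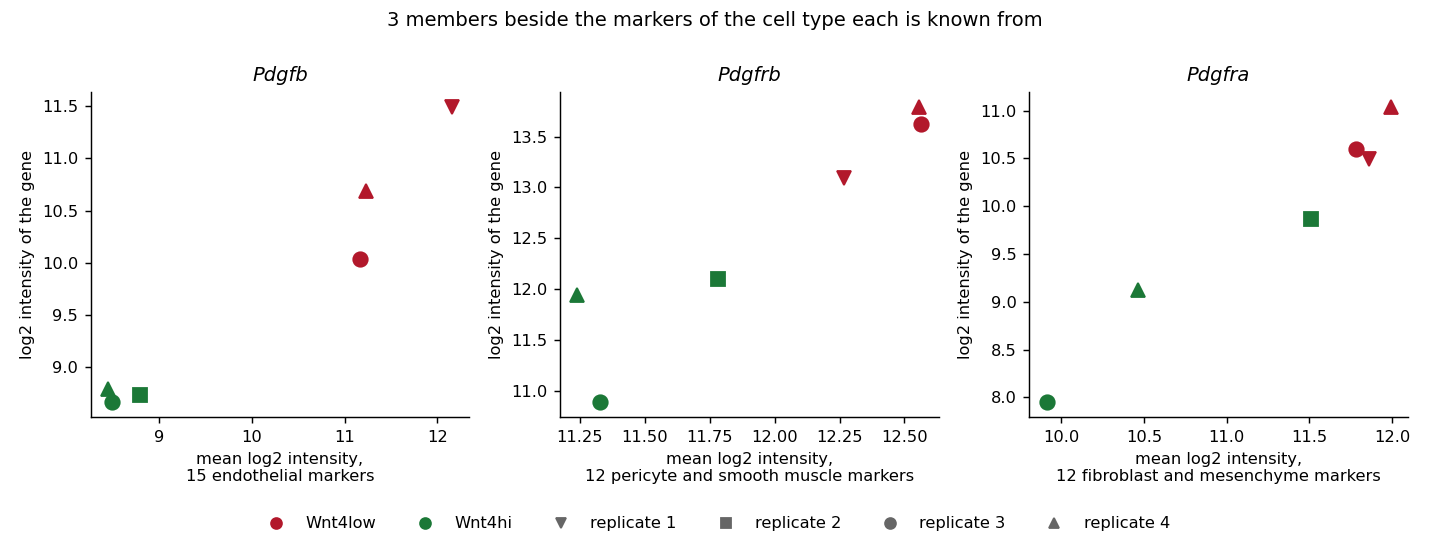
Log2 intensity of *Pdgfb*, *Pdgfrb* and *Pdgfra* on each array (vertical) against the mean log2 intensity of the markers of the cell type each is known from (horizontal), for Wnt4low (red) and Wnt4hi (green) arrays. In all 3 panels the Wnt4hi arrays lie to the lower left of the Wnt4low arrays, with fibroblast means from 9.91 to 11.51 in Wnt4hi cells.

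The remaining marker lists were read in the same way. The median difference was -0.54 over 10 leukocyte, -0.53 over 8 Schwann and glial, -0.84 over 10 acinar and 0.14 over 8 ductal markers, with 0 adjusted calls in each, and 5, 2, 1 and 1 markers, in that order, lower at the unadjusted threshold, which 5.53% of all features passed. Of the ductal markers 1 was also higher at that threshold, the epithelial adhesion gene *Epcam* at 1.19. Of 12 β-cell markers 11 were above 0 and 8 passed the unadjusted threshold, with a median of 1.07 and list means of 13.43 to 13.61 in Wnt4hi and 11.84 to 13.07 in Wnt4low cells. All 7 α-cell markers were above 0 with a median of 2.02, 3 of them past the unadjusted and 0 past the adjusted threshold, and 5.02% of all features were higher at the former. The α-cell list mean was 9.13, 11.21 and 11.25 on Wnt4low replicates 1, 3 and 4, with replicate 1 far below the others, and 11.70 to 12.77 on the Wnt4hi arrays. The 5 markers of delta, PP and epsilon cells were mixed. Of these, 2 were higher at the unadjusted threshold, 1 of them also after adjustment, and 2 were lower, the delta-cell genes *Sst* at -0.56 and *Hhex* at -1.75, with a median of 0.44.

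The remaining genes of both pathways were read from 7 lists with 91 genes in all. After adjustment 0 of the 91 passed, and the lowest adjusted p was that of *Spry1* (limma, 0.0663), which passed with median centring (limma, adjusted p = 0.0460) and when only probes well above background were tested. *Kl* and *Spry4* passed in the latter setting too, but their probes entered it only through the population in which they were high, so those passes support nothing. At the unadjusted threshold 16 were lower and 5 higher in Wnt4hi cells, beside 5.53% and 5.02% of all features, so that the 5 are close to that share. Members that the naming rule did not select are named where they passed. *Klb*, *Etv4*, *Etv5*, *Egr1*, *Fos*, *Spred2*, *Dusp5* and *Spry3*, which did not pass, are named beside other genes of their lists. All of these were picked after their values were seen.

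Of the PDGF family outside the 10 genes, *Pdgfd*, a ligand of PDGFRβ, read 11.45, 9.51 and 9.28 on the Wnt4low arrays and 6.98, 7.67 and 7.07 on the Wnt4hi arrays. Only 1 of the Wnt4hi arrays was well above background, and Wnt4low replicate 1 stood highest, as it did for *Pdgfb*. The difference was -2.84 (SE 0.59, limma unadjusted p = 0.00284, adjusted p = 0.142). *Pdgfc*, a PDGFRα ligand, differed by -0.52 (adjusted p = 0.590), and the receptor-like gene *Pdgfrl* by 0.23 (adjusted p = 0.763). Thus *Pdgfb* and *Pdgfd* passed the unadjusted threshold with lower values in Wnt4hi cells, and *Pdgfa* and *Pdgfc*, whose products act mainly through PDGFRα, did not pass it, a contrast between ligands that was not tested.

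None of the 17 other secreted FGF genes passed the unadjusted threshold, beside 5.53% of all features lower and 5.02% higher, with a median of 0.09 and a range from -0.44 to 0.27. On no array were 7 of the 17 well above background, and nothing is read from this count. *Fgf8*, a morphogen of early patterning, differed by 0.21, *Fgf17* by 0.26, *Fgf6* by -0.06 and *Fgf18* by -0.18. The homologous factors *Fgf11*, *Fgf13* and *Fgf14* differed by 0.05, -0.43 and -0.12 and did not pass. For *Fgf13* this depended on the probe, since the mean of its probes (-0.76), the probe of smallest p (-0.995) and the authors' table (-0.69) passed the unadjusted threshold, and for *Fgf11* the probe of smallest p did at 0.52.

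Of 17 co-receptors and binding proteins, 2 were higher and 6 lower at the unadjusted threshold, beside 5.02% and 5.53% of all features. *Kl*, which encodes Klotho, the co-receptor of an endocrine FGF, read 10.12, 9.82 and 9.86 on the Wnt4hi arrays and 6.75, 8.06 and 8.04 on the Wnt4low arrays, and 2 of the latter were well above background. The arrays were far apart, and the difference was 2.32 (SE 0.38, limma unadjusted p = 0.000761, adjusted p = 0.0809). *Klb*, encoding β-Klotho, differed by 0.38 (adjusted p = 0.564). Among glypicans, which are heparan sulfate proteins of the cell surface, *Gpc4* was 1.29 higher (adjusted p = 0.358), while *Gpc6* differed by -1.59 (adjusted p = 0.335), *Gpc2* by -1.19 and *Gpc3* by -0.95. The adhesion protein gene *Flrt2* differed by -2.05 (adjusted p = 0.178), and the syndecans *Sdc2* and *Sdc3* by -1.07 and -0.74.

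Of 11 genes of heparan sulfate synthesis and editing, 1 was higher and 0 lower at the unadjusted threshold, near the shares of 5.02% and 5.53% over all features, while 9 had values below 0 and the median was -0.51. The gene past it was the sulfotransferase gene *Hs6st1*, at 0.82 (limma, adjusted p = 0.277). The sulfatase gene *Sulf1* differed by -1.80 (SE 0.83, adjusted p = 0.539), with Wnt4hi replicate 3 at 7.23 and the other Wnt4hi arrays at 10.12 and 10.41, the polymerase gene *Ext1* by -1.37 (adjusted p = 0.502) and the sulfotransferase gene *Ndst2* by 0.06. Without 1 array *Sulf1* ran from -2.39 (without Wnt4hi replicate 4) to -0.79 (without Wnt4hi replicate 3), and *Ext1* from -1.91 (without Wnt4hi replicate 3) to -0.77 (without Wnt4hi replicate 2), and the first 3 of these 4 values passed the unadjusted threshold. Of 23 adaptors and transducers, 1 was lower and 1 higher at the unadjusted threshold, near the shares of 5.53% and 5.02% over all features. They were the docking protein gene *Gab1* at -1.42 (limma, adjusted p = 0.339) and the kinase gene *Braf* at 1.08 (adjusted p = 0.357). The list median was 0.01, near that of all features. The adaptor gene *Crk* differed by -1.04 and the exchange factor gene *Sos1* by 0.40, and neither passed.

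The list of feedback inhibitors and induced factors, whose transcripts the MAP kinase route induces in many tissues, had 8 of 17 genes lower and 1 higher at the unadjusted threshold, beside 5.53% and 5.02% of all features, and a median of -0.39. *Spry1*, a Sprouty inhibitor, read 10.46, 11.45 and 11.25 on the Wnt4low arrays and 9.15, 9.30 and 9.05 on the Wnt4hi arrays. The Wnt4hi arrays lay close together and well below all Wnt4low arrays, with a difference of -1.89 (SE 0.28, limma adjusted p = 0.0663, and 0.0294 when only probes well above background were tested). *Spry4* differed by -2.001 (SE 0.35, adjusted p = 0.0948), from 8.67, 8.60 and 9.77 to 6.96, 7.32 and 6.75, where 1 Wnt4hi array was well above background.

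The other 6 lower genes of this list were *Spred1* at -1.63, *Il17rd*, encoding the FGF inhibitor Sef, at -1.43, *Spry2* at -1.25, *Dusp6*, the phosphatase of ERK, at -1.05, *Dusp4* at -1.02 and the immediate early gene *Ier2* at -0.69. Their adjusted p values in limma's fit ran from 0.0708 for *Spred1* to 0.385 for *Ier2*. All 6 had no overlap between the arrays, which 6.44% of all features showed in this direction. They were named for passing on the same arrays, so the separation adds no support. *Etv1*, an ETS factor raised by FGF in several tissues, was higher by 0.96 (adjusted p = 0.362), whereas its relatives *Etv4* and *Etv5* differed by -0.20 and -0.33 and did not pass. *Spred3* differed by 0.22 and was the only other member above 0. The list was thus not uniform, and its lower members stood beside the same lower endothelial and mesenchymal markers, whose part in them was not tested.

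**Figure D4:**
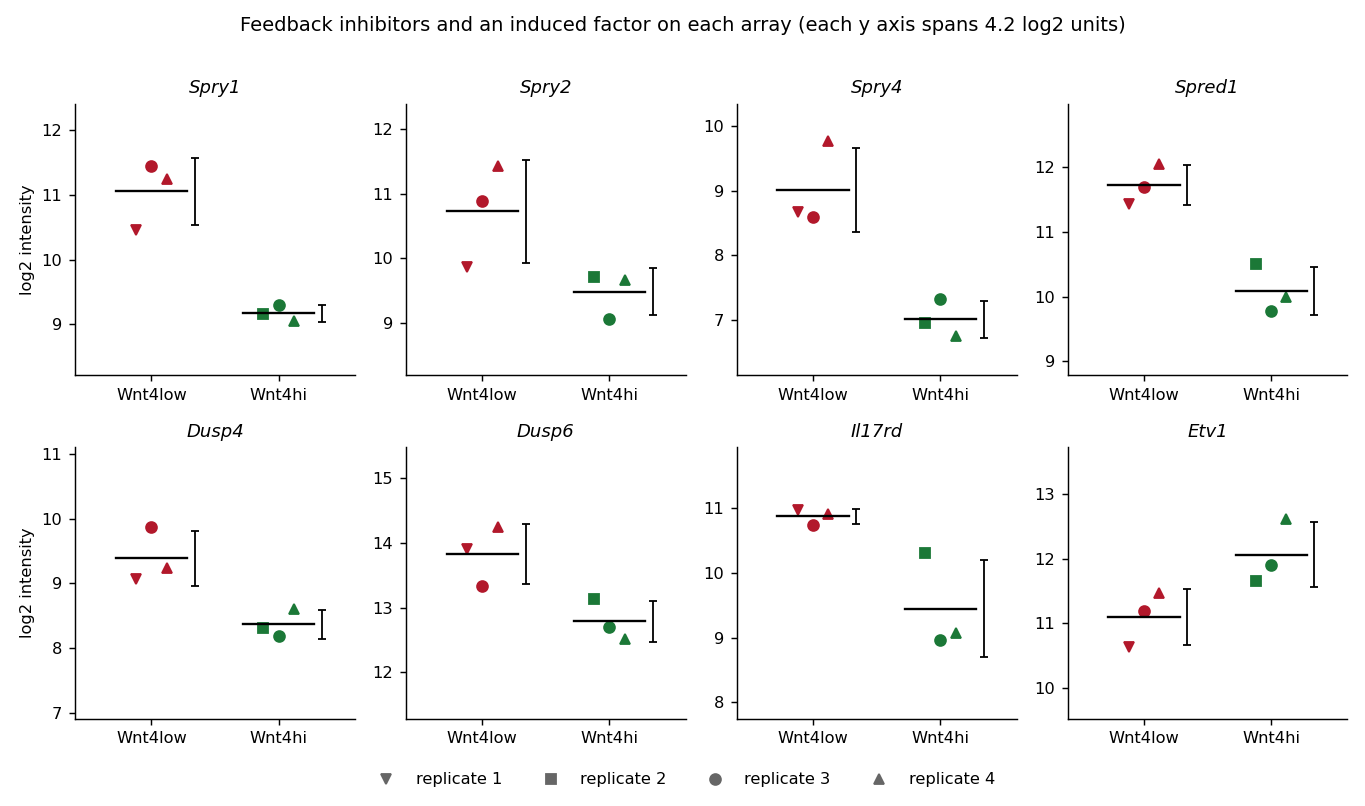
Log2 intensity of 7 feedback inhibitors and of the induced factor *Etv1* on each array, drawn as in the plot of the 10 genes. *Spry1*, *Spry2*, *Spry4*, *Spred1*, *Dusp4*, *Dusp6* and *Il17rd* lie lower on all Wnt4hi arrays, and *Etv1* lies higher. The genes drawn were picked from the 17 of the list after their values were seen. All of them passed the unadjusted threshold, and the members that did not pass are not drawn.

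**Figure D5:**
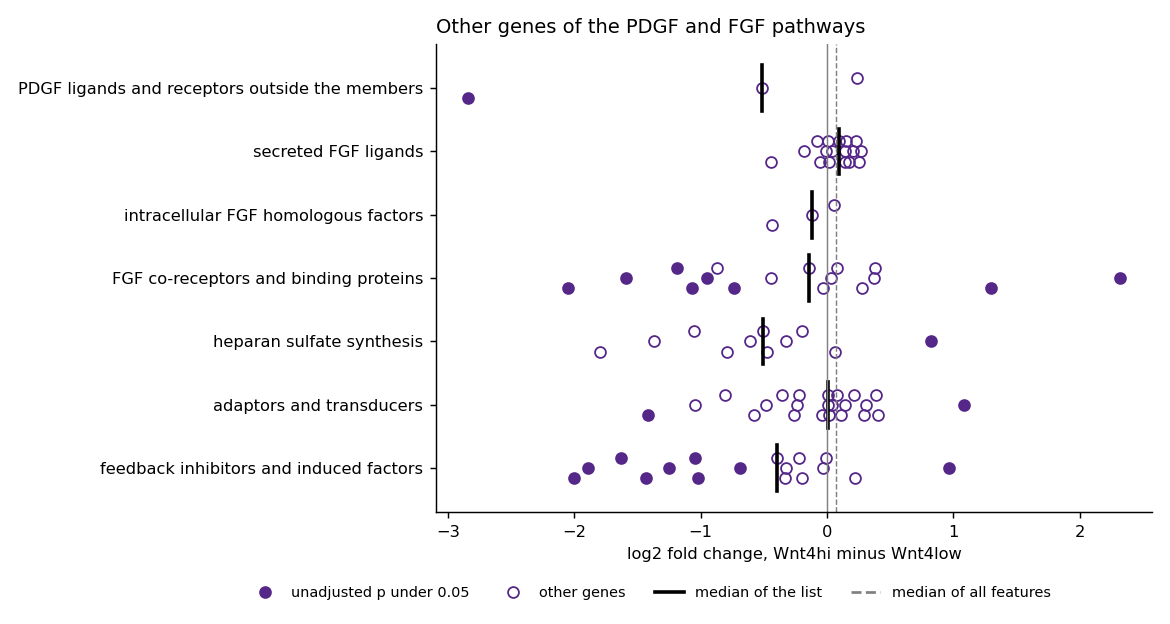
Log2 difference of the 91 other pathway genes by list, filled where the unadjusted p was under 0.05, with the median of each list (black) and of all features (dashed, 0.07). Lower values passed this threshold for 6 of 17 co-receptors and 8 of 17 feedback genes, beside 5.53% of all features, and the 17 secreted FGF genes lie between -0.44 and 0.27. Differences between lists were not tested.

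Genes with the most similar profiles were sought among 17660 genes by the root mean square difference of centred values over the 6 arrays. For *Pdgfra* these were *Matn2* (0.12), *Rapgef2* (0.15) and *Mest* (0.19), and for *Pdgfrb* they were *Epb41l2* (0.13), *Pls3* (0.15) and *Ccdc80* (0.18). For *Pdgfb* they were *Rab11fip5* (0.13), *Srgn* (0.15) and *Ehd4* (0.16), and for *Fgfr1* they were *Arhgdib* (0.14), *C1qtnf1* (0.15) and *Coro1a* (0.15). All 12 had differences below 0, which the likeness itself entails. For *Fgfr4*, *Pdgfa*, *Fgf12*, *Fgfr2*, *Fgfr3* and *Fgf1*, the nearest genes were *Pold2*, *Ankrd16*, *Crtc2*, *Gab3*, *AU041133* and *Adamtsl4* at 0.014 to 0.086. With 6 arrays, many genes have similar profiles.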

How the data were processed

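RNA of mGFP+ (Wnt4hi) and mGFP- (Wnt4low) islet cells was hybridised to 6 single-colour arrays, 3 per population, on 1 slide in 1 scan, so no batch was tested. The authors deposited the scanner output, with the Cy5 intensity per spot and that of the surrounding background, not normalized (Agilent Feature Extraction, of which the submitters' processing notes and the file headers name different versions), and a table of 36693 rows of normalized log2 values.

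Following the methods, the background of the median intensities was corrected by normexp (offset 50) and arrays were quantile-normalized with limma 3.58.1 in R 4.3.3. Outlier spots (50 to 141 per array) were left out and spots of a probe averaged. Probe accessions were named through RefSeq genes of GRCm38.p6, and 32994 of 35886 matched. The probe with the highest mean stood for a symbol. lmFit and eBayes were run on 45616 features, with Benjamini-Hochberg adjustment over all. Median intensity was 10.8 to 15.6 times the background, and the number of arrays limits precision. The p values rest on the spread between arrays, moderated over all features. In this spread, differences between pools of pups and those from sorting, amplification and hybridisation are not separated.

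The 10 genes, the lists and the tests were chosen with earlier results of these data known. Besides the 10 genes, the 2 largest and the 2 smallest differences of each list among genes well above background on all 3 arrays of a population were named, 3 markers each of the endothelial, pericyte and fibroblast lists, and the 3 nearest profiles per gene, of which the text gives only the nearest for 6 genes. For a bound, a dim array entered with its own value or, if higher, with its lowest well-above-background signal. Alternatives changed background correction, normalization, filter, outlier spots, probe choice, variance model, test, values, replicate block and the arrays used. The fit was also run on simulated arrays with independent errors. These hold no shared pups and no correlation between genes, so that run checks the code and not its fitness for this design.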

Additional observations from a re-analysis of the deposited data

How the results depend on the processing

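*Pdgfra*, *Pdgfrb*, *Pdgfb* and *Fgfr1* were below 0 with an unadjusted p under 0.05 in all alternatives, 20 each for *Pdgfrb* and *Fgfr1* and 19 each for *Pdgfra* and *Pdgfb*, which were not read in the authors' table. The filter, the kept outlier spots, the variance model and the t-test left these differences unchanged. So did the probe choices for *Pdgfra*, *Pdgfrb* and *Pdgfb*, which had 1 probe each. Those settings do not bear on the sign. Leaving out 1 array gave -2.16 to -1.22 for *Pdgfra*, -2.11 to -1.50 for *Pdgfrb*, -2.36 to -1.62 for *Pdgfb* and -1.42 to -1.05 for *Fgfr1*. With only probes well above background, *Pdgfb* at -2.01 passed the adjusted threshold. The difference of *Fgfr2* turned to 0.44 with the mean of all probes, 0.99 with the probe of smallest p and 0.045 in the authors' table, and ran from -0.21 to 0.026 when 1 array was left out. The 0.44 and 0.99 rest on its other probe, which was not well above background on any Wnt4low array, so no exact size or change of sign is read from them. The difference of *Fgfr3* turned to -0.015 in the authors' table. *Fgf6* turned to 0.014 with the processed signal, *Ndst2*, a sulfotransferase gene at 0.06, to -0.0040 with cyclic loess, and *Fgf14* to 0.20, 0.52 and 0.40 with the mean of probes, the smallest p and the authors' table. Without 1 array, *Fgf18* ran from -0.81 to 0.25, *Fgf6* from -0.15 to 0.063, *Fgf14* from -0.29 to 0.15, *Ndst2* from -0.50 to 0.41 and *Pdgfb* minus *Pdgfrb* from -0.56 to 0.42.

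Some named pathway genes missed the unadjusted threshold without 1 array. These were *Gpc6* without Wnt4low replicate 3 (-1.42) or 4 (-1.18) or Wnt4hi replicate 2 (-1.46) or 3 (-1.61), *Gpc4* without Wnt4hi replicate 3 (1.26) or 4 (1.16), *Gab1* without Wnt4hi replicate 4 (-1.10), *Etv1* without Wnt4low replicate 1 (0.72) or 3 (1.01) or Wnt4hi replicate 4 (0.68), and *Braf* without any array but Wnt4low replicate 3 (0.85 to 1.09). *Braf* also missed it with the mean of probes (0.63), the t-test (1.08), the authors' table (0.44) and the replicate block (0.87), *Hs6st1* in the authors' table (0.51) and with the block (0.78), and *Gpc6*, *Gpc4*, *Gab1* and *Etv1* with the t-test. Without Wnt4low replicate 3, *Pdgfc* (-0.74) and *Fgf13* (-0.60) passed it, as did *Fgf18* (-0.81) without Wnt4hi replicate 2, *Sos1* (0.74) without Wnt4low replicate 4 and *Crk* (-1.54) without Wnt4hi replicate 3. *Crk* also passed it with the mean of probes (-0.68) and in the authors' table (-0.88), and *Ext1* with median centring (-1.38), with only probes well above background (-1.37) and in the authors' table (-0.99).

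Adjusted features higher in Wnt4hi cells numbered 16, and 27 with median centring, 77 with only probes well above background, 47 with the smallest p and 58 in the authors' table. Those lower numbered 184, and 427, 324 and 348 in the last 3 settings. A two-tailed t-test, which the methods name for the study in general but not for these arrays, gave 0 in both directions after adjustment, with 2177 higher and 1867 lower unadjusted. Leaving out 1 array gave 0 higher and 0 to 5 lower, with 1598 to 2415 higher and 2108 to 2608 lower unadjusted.

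The replicate number as a block (numbers 3 and 4 occur in both populations, with correlations of deviations of -0.03 and 0.16, and the labels state no pairing) gave 0 adjusted features in either direction in limma, with 2056 higher and 2789 lower unadjusted, and a random block gave 25 higher. In the fixed block *Fgfr3* was -0.080, *Pdgfra* -2.29, *Pdgfrb* -2.30, *Pdgfb* -1.63 and *Fgfr1* -1.28, *Fgf18* and *Sulf1* passed the unadjusted threshold at -0.91 and -2.28 (-0.18 and -1.80 without the block), and the medians of the homologous factors and the co-receptors were -0.29 and -0.074.

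Of the list medians, that of the other PDGF genes was -0.77 with the processed signal and -0.043 in the authors' table, and -0.74 to -0.24 without 1 array. The homologous factors, at -0.12, had 0.20 with the mean of probes, 0.52 with the smallest p and 0.36 in the authors' table, and -0.29 to 0.046 without 1 array. The co-receptors, at -0.14, had -0.23 with cyclic loess, -0.29 with only probes well above background, -0.45 with the mean of probes, -0.45 with the smallest p and -0.31 in the authors' table, and -0.41 to -0.033 without 1 array. The heparan sulfate list, at -0.51, had -0.31 in the authors' table and -0.79 to -0.35 without 1 array, the ends being without Wnt4low replicates 3 and 4. The feedback list had -0.54 with only probes well above background, and -0.68 to -0.45 without 1 array. Without 1 array the secreted FGF genes had -0.015 to 0.14 and the adaptors -0.19 to 0.061. The cause of these shifts was not tested. Dim probes limit what can be said of *Pdgfd*, *Spry4*, *Kl* and the secreted FGF genes.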

Other observations

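Each column of the authors' table was set against the log2 values of the 6 arrays. In 5 of 6 columns the correlation across probes, which are not independent replicates, was highest with the array of the same label, at 0.910 to 0.924. The column of Wnt4hi replicate 2 had 0.871 with its own array and 0.889 with Wnt4hi replicate 3, which belongs to the same population. The values of *Pdgfrb* and *Fgfr1* from that table were -1.94 (limma, adjusted p = 0.0568) and -1.01 (adjusted p = 0.0735).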
